A study of Bos taurus with 6 samples.

Results

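The fibulins and the other glycoproteins of elastic fibres were followed in stromal fibroblasts of the bovine ovary, with EFEMP1 (fibulin-3) first. They comprised 10 genes of the 18010 named on the array, selected on gene symbol, with the probe set of highest mean log2 value over the 6 samples where a gene had several: EFEMP1, EFEMP2, FBLN1, FBLN2, FBLN5, FBN1, FBN2, ELN, MFAP4 and MFAP5. Each had 1 probe set, so isoforms of a gene could not be told apart. EFEMP1 heads the list because it was chosen by its already known difference between tumor and normal cells. Its values are thus a description and no test is given for it. The other 9 joined it by family, with earlier results of these data known.

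Fibroblasts cultured from tumor ovary (3 samples) were compared with fibroblasts cultured from normal ovary (3 samples). All 6 cultures were grown in DMEM/F12 with 10% FKS, without treatment, and RNA was hybridised to biotin microarrays. The labels name neither the type of tumor, the breed nor the age of the animals, and do not say that the samples of a group came from separate animals, so the p-values below rest on sample-to-sample spread that could be technical. The comparison asks which transcripts differ between stromal cells of tumor and normal ovary.

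Elastic fibres give tissues their recoil. A core of cross-linked elastin is laid down on microfibrils of fibrillin. Fibulins are secreted glycoproteins with repeated EGF-like modules, and some of them bridge elastin, fibrillin and the lysyl oxidases that cross-link the core. The fibrous ovarian stroma is stretched as follicles grow and rupture, and its fibroblasts make much of this matrix.

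All values are log2 expression as deposited, where a difference of 1 is a doubling, and every difference is tumor minus normal. Sample medians lay between 4.45 and 4.55, and correlations between samples were 0.988 to 0.991 among tumor cultures, 0.983 to 0.991 among normal cultures and 0.954 to 0.974 between the groups. Probe sets of olfactory receptors (717 in all), a family of sensory genes, served as a guide to background: 95% of their group means lay under 3.54. The median of these group means was 1.97, so the guide marks the upper edge of background. The cultures had the markers of fibroblasts, with COL1A1, COL1A2, DCN, LUM and VIM between 11.64 and 12.37 in all 6 cultures, and with COL3A1 and PDGFRA called higher in tumor cells (0.61 and 0.89; limma adjusted p = 0.0228 and 0.0204), calls lost without tumor replicate 1 or 2 (adjusted p = 0.0708 to 0.0815). THY1 differed by 1.35 (limma adjusted p = 0.0608) and PDGFRB by 0.39 (0.205). Some smooth muscle genes were also bright in all 6 cultures, with DES at 10.26 to 11.95, CNN1 at 9.90 to 10.48 and ACTG2 at 9.52 to 11.02. The others on that list, MYH11, RGS5 and CSPG4, lay between 2.80 and 6.90. Markers of other cells under the guide in both groups were 1 of 6 for leukocytes (PTPRC), 2 of 6 for endothelium (KDR, TEK), 2 of 6 for epithelium (EPCAM, CLDN4) and 3 of 4 for granulosa cells (FSHR, CYP19A1, INHA). Of all 18010 genes, 5203 lay under the guide in both groups. Other markers lay above it, such as CD14 at 5.64 in tumor cells and 5.42 in normal cells. VWF was at 3.99 in tumor cells and 3.84 in normal cells, and AMH at 4.62 in tumor cells and 4.08 in normal cells. The 6 epithelial markers averaged 3.51 to 3.57 in tumor cultures and 4.14 to 4.75 in normal cultures, and KRT8, KRT18 and KRT19 were called lower. KRT18 was at 4.23 to 4.54 in tumor cultures and at 5.93 to 7.99 in normal cultures (difference -2.78, limma adjusted p = 0.00632). KRT19 was at 3.67 to 4.17 in tumor cultures and at 5.79 to 6.23 in normal cultures (difference -2.05, limma adjusted p = 0.000406). KRT8 differed by -1.06 (limma adjusted p = 0.0408). The KRT8 call was lost in 5 of the 6 fits that left out 1 sample, all but that without normal replicate 3 (limma adjusted p = 0.08 to 0.135). It was also lost with the replicate block (0.061). The part of these keratins in the results below was not tested.

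EFEMP1 encodes fibulin-3, which helps to form elastic fibres of the fascia in mice and binds the protease inhibitor TIMP3. It stood at 11.85, 11.37 and 11.16 in the tumor cultures and at 3.54, 3.24 and 3.58 in the normal cultures. The groups were far apart, and the normal values lay at the background guide. Their means differed by 8.01, the largest positive difference of the 18010 genes. Because the mean normal signal was not above the guide, the fold has no exact size. Against the guide itself the tumor mean was 7.92 higher, or 242-fold. In bulk RNA, a larger share of cells making a transcript and more transcript per cell cannot be told apart.

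**Figure D1:**
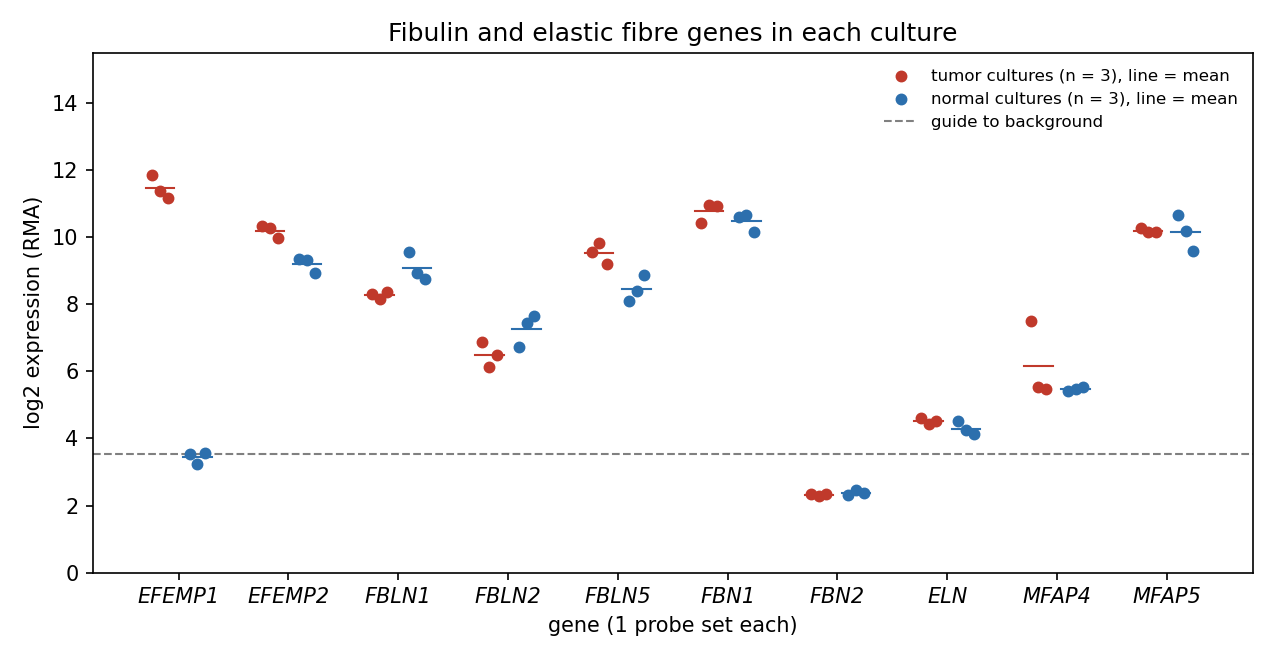
Log2 expression (y axis) of the 10 genes (x axis) in each tumor culture (red, left) and each normal culture (blue, right); short lines are group means and the dashed line is the background guide at 3.54. EFEMP1 lies at 11.16 to 11.85 in tumor cultures and at 3.24 to 3.58 in normal cultures, while the groups of the other genes lie close together.

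Of the 9 genes other than EFEMP1, 2 were called higher in tumor cells and 1 lower, by limma with Benjamini-Hochberg adjustment over all 18010 genes at a threshold of 0.05. Over all genes 8.56% were called higher and 9.44% lower. The groups did not overlap for the same 3 genes, where 17.6% of all genes had every tumor value above every normal value and 18.1% the reverse. The median difference of the 9 was 0.22, against 0.02 over all genes.

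EFEMP2 and FBLN5, both needed for elastic fibres in mice, rose with far smaller differences than EFEMP1. EFEMP2 (fibulin-4), which brings lysyl oxidase to elastin, was at 10.33, 10.28 and 9.97 in tumor cultures and at 9.36, 9.33 and 8.93 in normal cultures. The groups did not overlap, and the gene was well above background in both. It rose by 0.99 ± 0.16 (SE, 1.98-fold; limma adjusted p = 0.00615).

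FBLN5 (fibulin-5), which tethers elastin to microfibrils and to cell-surface integrins, was at 9.56, 9.83 and 9.21 in tumor cultures and at 8.09, 8.40 and 8.89 in normal cultures. The groups did not overlap, and normal 3 was the nearest to the tumor values. It rose by 1.07 ± 0.23 (SE, 2.10-fold; limma adjusted p = 0.0175). The call was lost without tumor replicate 1, tumor replicate 2 or normal replicate 2 (adjusted p = 0.0567, 0.064 and 0.0653 in limma).

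Of the longer fibulins FBLN1 and FBLN2, only FBLN1 was called. FBLN1 (fibulin-1), which binds fibronectin, nidogen and versican, was at 8.30, 8.16 and 8.37 in tumor cultures and at 9.55, 8.94 and 8.77 in normal cultures. The tumor samples were tightly grouped below all normal samples, of which normal 1 stood highest. It fell by 0.81 ± 0.20 (SE; limma adjusted p = 0.029), a call lost without any 1 tumor sample or without normal replicate 2 (adjusted p = 0.061 to 0.0974 in limma).

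FBLN2 (fibulin-2), a partner of basement membrane and microfibril proteins, was at 6.89, 6.14 and 6.48 in tumor cultures and at 6.73, 7.46 and 7.64 in normal cultures. The groups overlapped through tumor 1 and normal 1. The difference of -0.77 (95% interval -1.40 to -0.15) was not called (limma adjusted p = 0.0911), but passed without normal replicate 1 (-1.05, adjusted p = 0.0204) and with array weights (-0.98, adjusted p = 0.0116).

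Further fibulins were measured from a separate list of 3 genes. Both that had a probe set, FBLN7 (fibulin-7) and HMCN1 (hemicentin-1, also called fibulin-6), were not called in limma, and 0 passed an unadjusted p of 0.05. FBLN7 averaged 3.51 ± 0.12 in tumor cells and 3.54 ± 0.18 in normal cells (SD, n = 3 each), at the background guide. HMCN1 was at 5.45, 4.45 and 4.65 in tumor cultures and at 4.62, 5.76 and 4.47 in normal cultures, with the groups overlapping and 1 high sample in each.

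The core and scaffold genes showed no called difference. ELN, the elastin core protein, was not far above the background guide, at 4.60, 4.43 and 4.51 in tumor cultures and at 4.51, 4.26 and 4.12 in normal cultures. The groups overlapped through normal 1, and the difference was 0.22 (95% interval -0.09 to 0.53; limma adjusted p = 0.33). FBN1 (fibrillin-1), the main microfibril protein of adult tissue, was well above the guide, at 10.43, 10.97 and 10.95 in tumor cultures and at 10.61, 10.66 and 10.16 in normal cultures. Tumor 1 lay inside the normal range, and the difference was 0.31 (95% interval -0.15 to 0.76; limma adjusted p = 0.351). FBN2, the fibrillin of developing tissue, was at 2.28 to 2.35 in tumor cultures and at 2.32 to 2.45 in normal cultures. Both groups lay under the background guide and overlapped, so no size is given (limma adjusted p = 0.782).

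**Figure D2:**
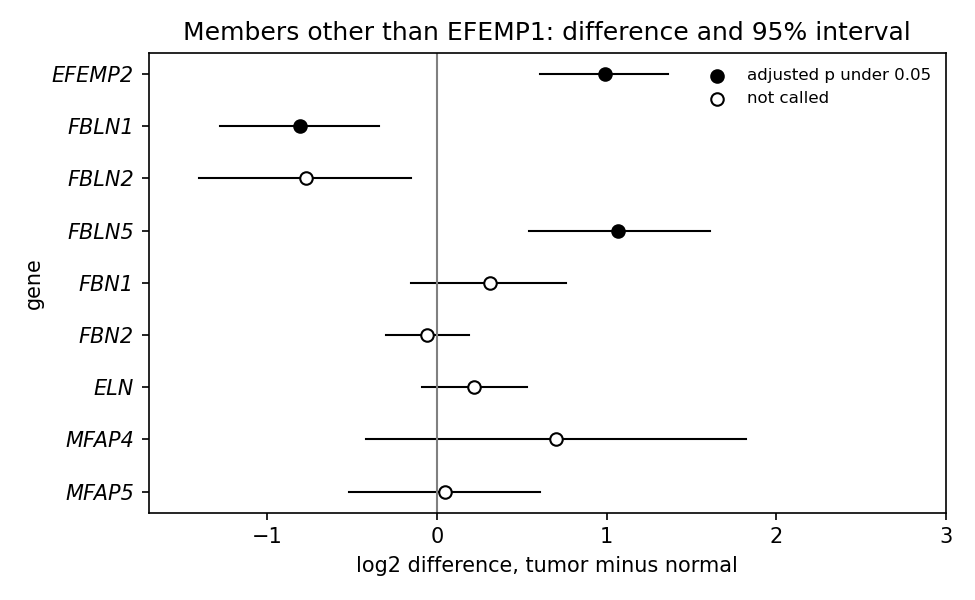
Log2 difference between tumor and normal cultures (x axis, point) with its 95% interval from limma (line) for the 9 genes other than EFEMP1 (y axis); filled points passed an adjusted p of 0.05. EFEMP2 and FBLN5 lie near 1, FBLN1 at -0.81, and the intervals of FBN1, FBN2, ELN, MFAP4 and MFAP5 include 0.

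MFAP5 and MFAP4 were not called, and each varied widely within 1 group. MFAP5 (MAGP-2), which binds fibrillin and Notch ligands, was at 10.27, 10.17 and 10.15 in tumor cultures and at 10.66, 10.20 and 9.59 in normal cultures. All tumor values lay inside the normal range. The difference was 0.05 (95% interval -0.52 to 0.61; limma adjusted p = 0.924), and its sign turned without normal replicate 3 (-0.23) and with array weights (-0.01).

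MFAP4, which binds elastin and fibrillin-1 and is abundant around smooth muscle, was at 7.50, 5.54 and 5.49 in tumor cultures and at 5.41, 5.47 and 5.55 in normal cultures. A single sample stood apart: tumor 1 was 1.96 above the next tumor sample, while tumor 2 and tumor 3 lay with the normal cultures. The difference of 0.70 (95% interval -0.42 to 1.82; limma adjusted p = 0.39) became 0.04 without tumor replicate 1.

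Tumor 1 also had more of several genes of smooth muscle and pericytes. MYH11, the smooth muscle myosin heavy chain, was at 6.90, 5.29 and 4.75 in tumor cultures and at 3.23, 3.98 and 3.97 in normal cultures. Of the 6 markers on that list, 5 were highest among tumor cultures in tumor 1, where 36.1% of all genes were. The list averaged 7.06 to 7.87 in tumor cultures and 7.28 to 7.59 in normal cultures, with MYH11 called higher and DES, ACTG2 and CSPG4 called lower in tumor cells, and none of the 6 markers lay under the background guide in both groups. The MYH11 call was lost without tumor replicate 2 or any 1 normal sample (adjusted p = 0.0643 to 0.0866, limma) and with the replicate block (0.0679), and that of DES without normal replicate 2 (0.0549). The part of these genes in the MFAP4 value was not tested.

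Within groups the 10 genes did not move as a block. Among normal cultures FBLN1 and MFAP5 were highest in normal 1 and lowest in normal 3, while FBLN2 and FBLN5 were highest in normal 3 and lowest in normal 1. These pairs thus ran in opposite order over the same 3 samples. LRRN4, 1 of 4 markers of the mesothelium that covers the ovary, was at 7.72, 5.80 and 4.74 in normal 1, normal 2 and normal 3. The 4 markers averaged 4.52 to 4.99 in tumor cultures and 4.15 to 5.22 in normal cultures. Among normal cultures 3 of the 4 were highest in normal 1, where 35.7% of all genes were. MSLN was highest in normal 2, and CALB2 lay under the background guide in both groups. UPK3B was called higher in tumor cells, at a mean of 5.10 against 4.28 in normal cells (limma adjusted p = 0.02). The UPK3B call was lost without tumor replicate 1 or normal replicate 2 (adjusted p = 0.0649 and 0.0574 in limma). The part of these markers was not tested. The median standard deviation of the 10 genes was 0.25 among tumor and 0.26 among normal cultures, against 0.15 and 0.16 over all genes.

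**Figure D3:**
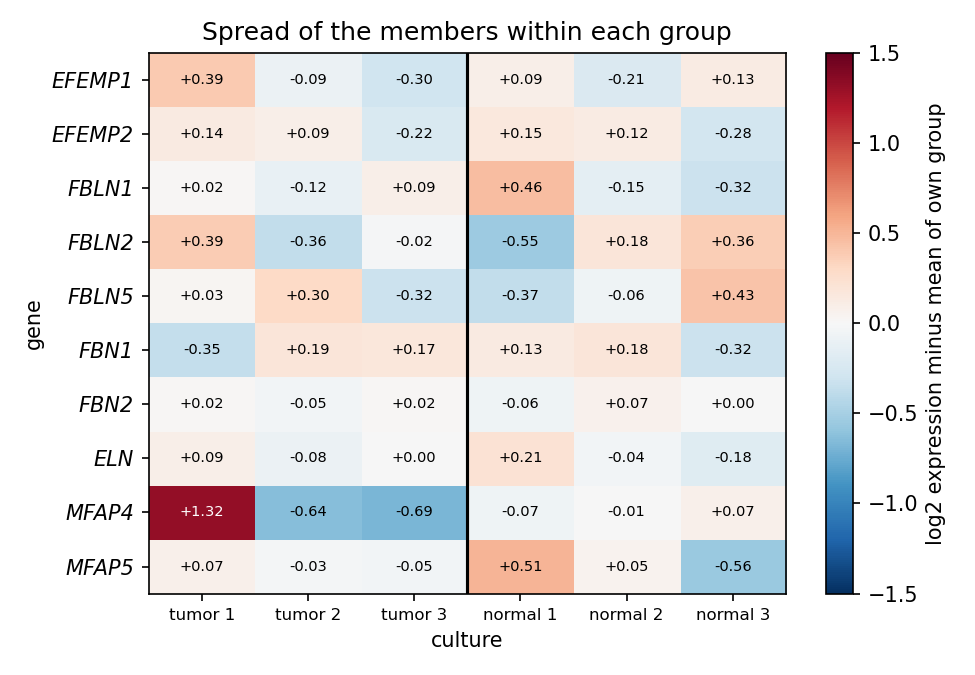
Log2 expression of each gene (rows) in each culture (columns) minus the mean of that culture's own group, by colour and printed value. MFAP4 stands 1.32 above its group mean in tumor 1, and MFAP5 runs between 0.51 in normal 1 and -0.56 in normal 3.

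The wider machinery of elastic fibres was described from 6 further lists of 66 genes, of which 62 were measured. In limma 13 of the 62 were called higher and 6 lower, where 8.56% and 9.44% of all genes were. Their median difference was 0.10 against 0.02 over all genes. Because the lists were chosen with earlier results of these data known, these counts are a description only. The called genes were spread over 5 of the 6 lists.

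Of 21 microfibril and assembly genes, 3 were called higher and 3 lower, where 8.56% and 9.44% of all genes were. EMILIN2, an elastin microfibril interface protein, was at 5.20, 5.39 and 5.18 in tumor cultures and at 3.67, 4.03 and 4.04 in normal cultures, and rose by 1.34 ± 0.14 (SE; limma adjusted p = 0.000945). MFAP2 (MAGP-1), a fibrillin-bound relative of MFAP5, was at 6.95, 6.40 and 5.87 in tumor cultures and at 5.27, 5.19 and 5.11 in normal cultures. It rose by 1.22 ± 0.25 (SE; limma adjusted p = 0.0135; 0.0505 without normal replicate 2). All tumor values of MFAP2 lay above all normal values, while those of MFAP5 lay inside the normal range; the difference between these genes was not tested.

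THSD4 (ADAMTSL6), which promotes fibrillin-1 assembly, rose by 0.69 ± 0.11 (SE; limma adjusted p = 0.00606). ADAMTS6, a protease that acts on microfibril components, was at 6.47, 6.68 and 6.11 in tumor cultures and at 7.80, 7.87 and 7.45 in normal cultures, and fell by 1.29 ± 0.18 (SE; limma adjusted p = 0.00323). ADAMTSL5, a fibrillin-binding relative without protease activity, fell by 0.82 ± 0.18 (SE; limma adjusted p = 0.0177; 0.072 without normal replicate 2). MFAP3 fell by 0.35 ± 0.10 (SE; limma adjusted p = 0.049), a call lost without any 1 of the 6 samples (adjusted p = 0.0921 to 0.146), with quantile normalization (0.0775) and with the replicate block (0.0976). Without normal replicate 2 the number called lower in this list was 1.

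Among the 5 lysyl oxidases, copper enzymes that cross-link elastin and collagen, 2 were called higher and 0 lower in limma (3 and 0 at an unadjusted p of 0.05). Over all genes 8.56% were called higher and 9.44% lower, and the share at the unadjusted threshold was not computed. LOX, the oxidase that fibulin-4 binds, was nearly level, at 12.17, 12.02 and 11.87 in tumor cultures and at 11.94, 11.96 and 11.77 in normal cultures (difference 0.13, 95% interval -0.16 to 0.42; limma adjusted p = 0.557). LOXL1, the oxidase that fibulin-5 binds, averaged 10.56 ± 0.16 in tumor cells and 10.69 ± 0.10 in normal cells (SD, n = 3 each; limma adjusted p = 0.574).

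LOXL3 was at 7.49, 7.33 and 7.27 in tumor cultures and at 6.53, 6.30 and 5.90 in normal cultures, and rose by 1.12 ± 0.17 (SE; limma adjusted p = 0.00464). LOXL4 was at 8.60, 7.37 and 7.13 in tumor cultures and at 6.85, 5.89 and 5.40 in normal cultures, and rose by 1.65 ± 0.46 (SE; limma adjusted p = 0.0419). Its groups did not overlap, but both spread widely, and the call was lost without tumor replicate 1 or 2 or normal replicate 2 or 3 (adjusted p = 0.0783 to 0.127 in limma), which leaves 1 called oxidase. The mean over both probe sets of LOXL4 rose by 1.20 (limma adjusted p = 0.0457).

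Of 11 receptor genes for elastin, fibulin-5 and fibrillin, 3 were called higher and 1 lower, where 8.56% and 9.44% of all genes were. ITGAV, the alpha V chain, was at 11.15, 11.38 and 11.20 in tumor cultures and at 10.77, 10.29 and 9.96 in normal cultures, and rose by 0.90 ± 0.20 (SE; limma adjusted p = 0.0197). ITGB3, a beta chain that pairs with it, was at 6.65, 6.86 and 7.75 in tumor cultures and at 8.98, 9.27 and 9.35 in normal cultures. ITGB3 fell by 2.11 ± 0.27 (SE; limma adjusted p = 0.00229).

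ITGB5, the alternative beta chain, was at 8.81, 8.69 and 8.52 in tumor cultures and at 7.72, 7.84 and 7.33 in normal cultures, and rose by 1.04 ± 0.16 (SE; limma adjusted p = 0.0047). ITGB1, the most widely shared beta chain, averaged 11.54 ± 0.02 in tumor cells and 11.60 ± 0.05 in normal cells (SD, n = 3 each; limma adjusted p = 0.791). The other partners of alpha V on the list, ITGB8 and ITGB6, were not called in limma (adjusted p = 0.106 and 0.29). GLB1, whose splice variant encodes the elastin-binding protein, rose by 0.52 ± 0.15 (SE; limma adjusted p = 0.0491; 0.0942 with the replicate block). The ITGAV call was lost without tumor replicate 2 or 3 or normal replicate 2 (adjusted p = 0.0506 to 0.0731), and GLB1 without any sample but normal replicate 1 (0.0748 to 0.14), leaving 1 receptor gene called higher without tumor replicate 2, tumor replicate 3 or normal replicate 2. The number called lower was 2 without tumor replicate 3, with median centring, with the dimmest genes left out and with a mean-variance trend, and 3 with array weights. In that order these settings called 2557, 3155, 3426, 3432 and 5054 of all genes in either direction, against 3242 in the main fit.

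Of 10 proteases that can cleave elastin, 2 were called higher and 0 lower in limma (3 and 1 at an unadjusted p of 0.05). The calls over all genes were 8.56% higher and 9.44% lower, with no share computed at the unadjusted threshold. CTSS, the elastase cathepsin S, was at 7.59, 7.08 and 7.36 in tumor cultures and at 5.31, 4.90 and 4.60 in normal cultures, a rise of 2.41 ± 0.21 (SE; limma adjusted p = 0.000414). MMP7 (matrilysin) was also called (limma adjusted p = 0.00825), but averaged 3.45 in tumor cells and 2.58 in normal cells, with both means under the background guide, so no size is given; it drops out when the dimmest genes are left out, which leaves 1 protease called higher. MMP2, a gelatinase that also cleaves elastin, was nearly level, at 11.92 ± 0.14 in tumor cells and 11.94 ± 0.04 in normal cells (SD, n = 3 each; limma adjusted p = 0.922). CTSS is also made by macrophages; of 6 leukocyte markers CD68 was called higher and 0 lower in limma (1 and 0 at an unadjusted p of 0.05), PTPRC lay under the background guide in both groups, and the list averaged 4.23 to 4.32 in tumor cultures and 3.75 to 4.05 in normal cultures. Without normal replicate 3 or with array weights, 1 protease was called lower.

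**Figure D4:**
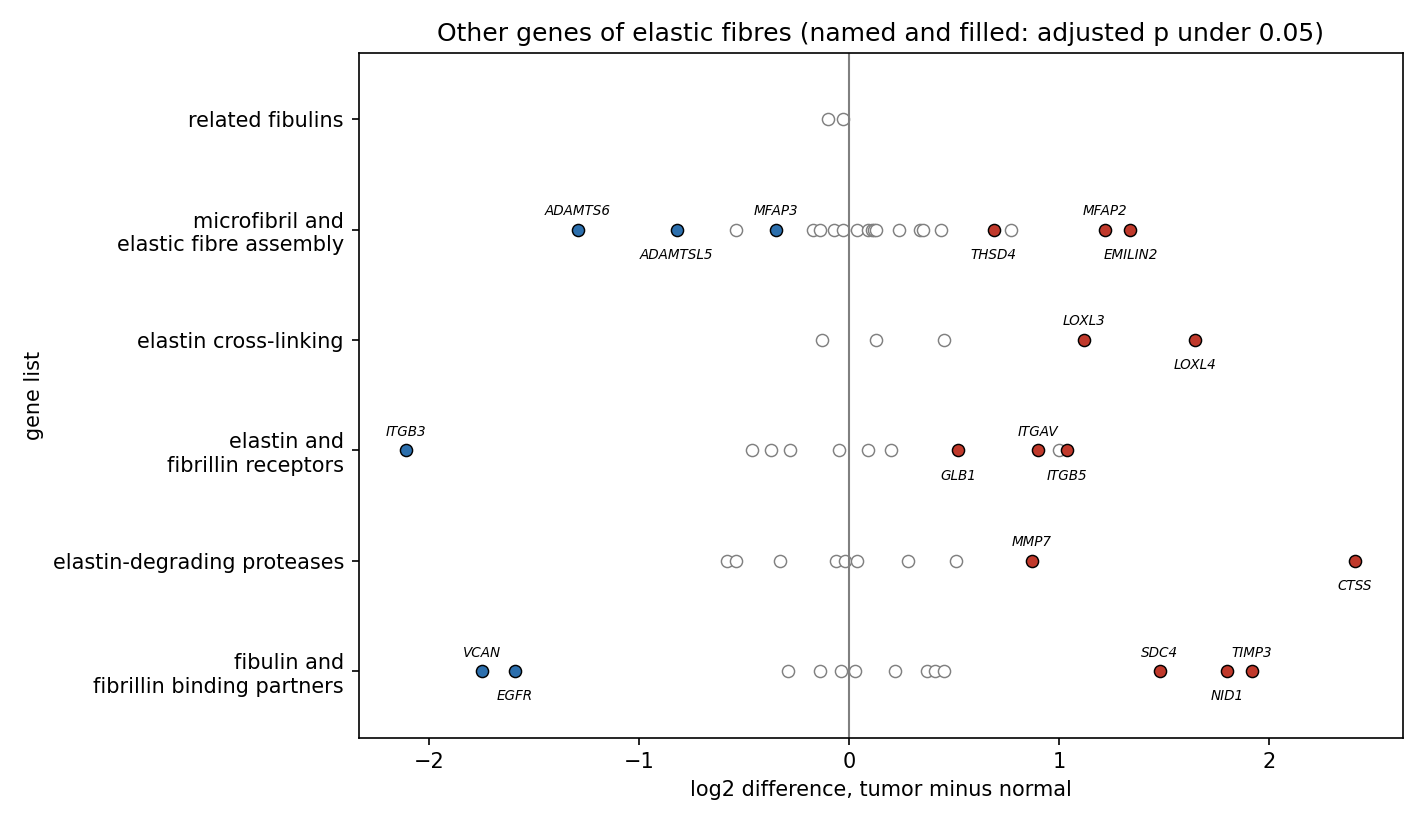
Log2 difference between tumor and normal cultures (x axis) of 62 further genes in 6 lists (y axis); filled, named points passed an adjusted p of 0.05 in limma (red higher, blue lower in tumor cells) and open points did not. The called genes run between ITGB3 at -2.11 and CTSS at 2.41.

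Proteins that bind fibulins or fibrillins gave 3 called higher and 2 lower of 13, where 8.56% and 9.44% of all genes were. The number higher was 5 with a mean-variance trend and 6 with array weights. Those settings called 3432 and 5054 of all genes in either direction, against 3242 in the main fit. TIMP3, the metalloproteinase inhibitor bound by fibulin-3, was at 10.89, 10.47 and 10.59 in tumor cultures and at 8.08, 9.00 and 9.11 in normal cultures. Every tumor value was above every normal value, and it rose by 1.92 ± 0.27 (SE, 3.78-fold; limma adjusted p = 0.00319). EGFR, the epidermal growth factor receptor, reported to bind human fibulin-3, was at 6.97, 7.13 and 6.99 in tumor cultures and at 8.87, 8.57 and 8.41 in normal cultures. EGFR fell by 1.59 ± 0.14 (SE; limma adjusted p = 0.000516), so these partners of fibulin-3 changed in opposite directions.

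VCAN (versican), a large proteoglycan bound by fibulin-1, fibulin-2 and fibrillin-1, was at 8.05, 7.91 and 7.73 in tumor cultures and at 9.58, 9.64 and 9.71 in normal cultures. It fell by 1.75 ± 0.12 (SE; limma adjusted p = 0.000201). NID1 (nidogen-1), a basement membrane linker bound by fibulin-1 and fibulin-2, was at 7.93, 7.67 and 7.40 in tumor cultures and at 5.68, 5.84 and 6.07 in normal cultures, and rose by 1.80 ± 0.17 (SE; limma adjusted p = 0.000597). SDC4 (syndecan-4), a heparan sulfate proteoglycan of the cell surface that fibrillin-1 fragments engage, rose by 1.48 ± 0.19 (SE; limma adjusted p = 0.00217). FN1, the fibronectin scaffold on which fibrillin is laid down, was level at 12.36 ± 0.13 in tumor cells and 12.34 ± 0.09 in normal cells (SD, n = 3 each; limma adjusted p = 0.912).

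The genes around EFEMP1 gave no such difference. The 3 nearest measured genes on each side in the RefSeq gene order were CFAP36, PPP4R3B and PNPT1 on one side and the microRNA genes MIR217, MIR216A and MIR216B on the other. PNPT1, a mitochondrial RNA-degrading enzyme, was the nearest measured gene on its side. It was at 6.41, 6.43 and 6.82 in tumor cultures and at 6.82, 6.96 and 7.34 in normal cultures. The PNPT1 difference was -0.49 (95% interval -0.90 to -0.08, limma adjusted p = 0.102). None of the 6 was called in limma (adjusted p = 0.102 to 0.835; PNPT1 was the only 1 under an unadjusted p of 0.05), and the microRNA probe sets lay under the background guide in both groups.

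Genes with a profile like that of EFEMP1 were ranked by the root mean square distance over the 6 samples between values centred on each gene's own mean. The nearest were ALPL (tissue-nonspecific alkaline phosphatase) at 0.77, IGF2 (a growth factor) at 0.90, CLEC2D (a C-type lectin) at 1.03, A2M (a broad protease inhibitor) at 1.15 and ASPN (asporin) at 1.30. ALPL was at 10.75, 10.74 and 10.48 in tumor cultures and at 4.54, 3.85 and 3.99 in normal cultures. IGF2 was at 11.73, 10.98 and 10.83 in tumor cultures and at 5.32, 4.73 and 4.75 in normal cultures. The distance favours genes with large rises, and none of the 5 was as far apart between groups as EFEMP1; no test is given, since likeness to EFEMP1 chose them.

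**Figure D5:**
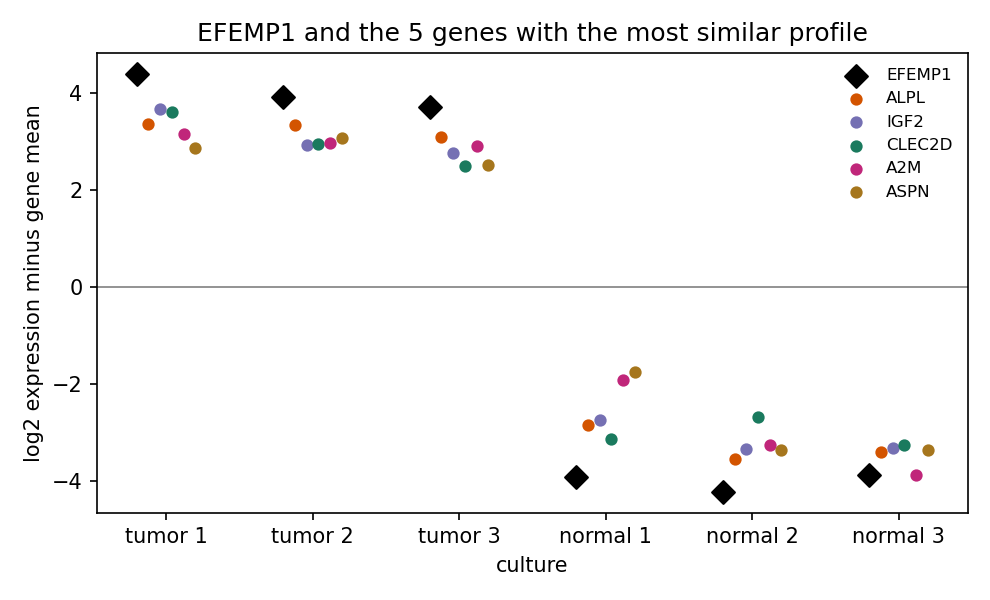
Log2 expression minus each gene's mean over the 6 cultures (y axis) for EFEMP1 (black diamonds) and the 5 genes of nearest profile (coloured points) in each culture (x axis). All tumor values lie above 0 and all normal values below it, and EFEMP1 has the widest gap.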

How the data were processed

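RNA of 6 bovine cultures, 3 tumor and 3 normal, was measured by microarray and grouped by title. The deposited values are log2 expression made by the authors with RMA, per the submitters' processing notes; its software, its version and the part of each transcript that was read are unknown here. Of 24415 probe sets, 18457 had 1 gene symbol in the platform annotation, 688 several (not used) and 5270 none. Each of 18010 genes took its probe set of highest mean; all 10 symbols matched RefSeq (ARS-UCD2.0), 8 of them by gene ID too. Detection calls, scan dates and scanner intensities were not analysed here, so no batch could be examined, and the number of samples limits the precision.

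The test of tumor against normal cells was limma 3.58.1 under R 4.3.3 (lmFit, eBayes, two-sided, no covariates, Benjamini-Hochberg over all genes), tested on simulated data. The 10 genes and the lists were chosen with earlier results of these data known. The text names all 10, the called genes of the 6 further lists with TIMP3, EGFR, LOX and LOXL1, marker genes, and the 5 genes most like EFEMP1. Further uncalled genes (FBLN7, HMCN1, ITGB1, ITGB6, ITGB8, MMP2, FN1) and the neighbours of EFEMP1 were chosen after their values were seen. Alternatives were quantile normalization, median centring, the dimmest 25% left out, a robust prior, a mean-variance trend, weights per array, the replicate number as a block, the mean of probe sets, and each sample left out.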

Additional observations from a re-analysis of the deposited data

How the results depend on the processing

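EFEMP1 differed by 7.81 to 8.16 over the 14 alternatives, and EFEMP2 kept its call in all of them (adjusted p = 0.00152 to 0.0294, limma). With array weights, 2 of the 9 genes other than EFEMP1, 11 of the 62 further genes and 5054 of all genes were called, the first 2 counts lower and the last in either direction, and 20 of the 62 were called higher; the main numbers were 1, 6, 3242 and 13. MFAP5 then differed by -0.01. Leaving out 1 sample gave 1 to 2 of the 9 higher (1 without tumor replicate 1 or 2 or normal replicate 2) and 0 to 2 lower (0 without any 1 tumor sample or normal replicate 2, 2 without normal replicate 1), -0.23 to 0.30 for MFAP5, 9 to 18 of the 62 higher and 4 to 6 lower, and 1765 to 3226 genes in all (1765 when normal replicate 2 was left out, 1887 for tumor replicate 2 and 1968 for tumor replicate 1); the cause was not tested. Same-numbered samples did not deviate together (correlations of 0.05, -0.08 and 0.07), and the replicate block called 2 of the 9 higher and 1 lower, 14 and 6 of the 62, and 2895 genes. Of the 21 further genes followed, 14 kept their status and direction in all 14 alternatives. Among these 14 were LOX and LOXL1, which were never called. MMP7 kept its call in the 13 alternatives that tested it. Values under the background guide of 3.54, as for FBN2, limit what a difference can show.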
